A study of Mus musculus with 6 samples.

Results

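The genes described here encode the subunits of the oxidative phosphorylation complexes. They were chosen by symbol alone, as every gene with the mitochondrial prefix mt- and the nuclear genes of the Nduf, Sdh, Uqcr, Cyc1, Cox and Atp5 series that name subunits. The symbols matched 99 of the 21841 genes in the deposited table, of which 13 were mitochondrially encoded and 86 nuclear. The mitochondrially encoded genes belonged to complex I (7 genes), complex III (1 gene), complex IV (3 genes) and complex V (2 genes). The nuclear genes belonged to complex I (35 genes), complex II (4 genes), complex III (9 genes), complex IV (20 genes) and complex V (17 genes), and 1 gene, Ndufb1-ps, was placed in no complex because its symbol marks a pseudogene. All genes with the mt- prefix were protein-coding, and the table held no mitochondrial ribosomal or transfer RNA under that prefix.

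Oxidative phosphorylation makes ATP in the inner mitochondrial membrane. Complexes I and II pass electrons from NADH and succinate to ubiquinone, complex III passes them to cytochrome c, complex IV passes them to oxygen, and complex V makes ATP from the proton gradient that complexes I, III and IV build. The mitochondrial chromosome encodes a few core subunits of every complex but complex II, and it is transcribed as long precursor RNAs that are then processed into single messages, whereas nuclear subunits are transcribed gene by gene and imported as proteins. Complexes II, III and IV carry heme groups, and heme oxygenase-1, the enzyme that KCL-HO-1i inhibits, degrades heme. In macrophages, the balance of oxidative phosphorylation and glycolysis is known to differ between activation states.

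The libraries came from mammary tumors of mice of the line FVB/N-Tg(MMTV-PyVT)634Mul/J, in which the MMTV promoter drives the polyoma middle T oncogene; their genotype is labelled WT. The mice received either vehicle (3 mice) or KCL-HO-1i (3 mice, 25 µmol per kg per day by intraperitoneal injection) for 36 hours before the tumors were collected. Each library was made from sorted cells labelled CD206+LYVE1+ macrophages, with a target of 5000 cells that the series text gives per condition without saying whether this means a mouse or a group, and the labels give neither the age nor the sex of the mice. The comparison asked how RNA from these macrophages differed after inhibition of heme oxygenase-1.

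The vehicle libraries held 206728, 215647 and 338255 counts, and the KCL-HO-1i libraries held 207812, 319737 and 535224 counts (replicates 1, 2 and 3 in each group). The number of genes with at least 1 count was 15101, 14013 and 17311 in the vehicle libraries, compared with 7584, 15141 and 10773 in the KCL-HO-1i libraries. Of the 86 nuclear subunit genes, 65, 34 and 60 had at least 1 count in the vehicle libraries, compared with 57, 74 and 69 in the KCL-HO-1i libraries, and 39, 10 and 11 against 48, 60 and 60 had at least 10 counts. The codes of the animals in the labels have 1 prefix in all vehicle mice and other prefixes in all KCL-HO-1i mice, so whatever these prefixes stand for cannot be told apart from the treatment.

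The label of the cells was checked against marker genes. The 15 general macrophage genes, of which Lyz2 was the most abundant, took 0.131%, 0.0348% and 0.0326% of counts in the vehicle libraries, compared with 0.452%, 0.550% and 0.344% in the KCL-HO-1i libraries. Fcgr3 and Mertk were at 0 in all vehicle libraries. Not every marker differed this way: Cx3cr1 had 10, 23 and 14 counts with vehicle and 0, 27 and 0 after KCL-HO-1i, Cd68 had 8, 9 and 8 against 0, 13.9 and 4, and 2 of the 9 macrophage genes tested had negative log2 fold changes. The 4 sort markers (Ptprc, Adgre1, Mrc1, Lyve1) took 0.0198%, 0.00788% and 0.00469% in the vehicle libraries, compared with 0.0311%, 0.0408% and 0.0572% in the KCL-HO-1i libraries, with Mrc1, the gene of CD206, at 0 in vehicle 2 and Lyve1 at 22, 8 and 12.4 counts with vehicle and 8, 38 and 36 after KCL-HO-1i. Olfactory, vomeronasal and taste receptor genes, which macrophages are not known to express at high levels, took 6.42%, 6.01% and 6.46% of counts in the vehicle libraries, compared with 4.17%, 3.28% and 2.22% in the KCL-HO-1i libraries. The macrophage label of all 3 vehicle libraries therefore rested on few counts, and the macrophage genes differed between the groups together with the subunit genes. The part of this difference in the results below was not tested, and in bulk RNA fewer cells of a type and less RNA per cell cannot be told apart.

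The 13 mitochondrially encoded genes together took 3.77%, 1.17% and 1.52% of all counts in vehicle 1, 2 and 3, with Wilson 95% intervals of 3.69% to 3.85%, 1.13% to 1.22% and 1.48% to 1.56%. In KCL-HO-1i 1, 2 and 3 they took 9.68% (9.56% to 9.81%), 2.45% (2.40% to 2.50%) and 41.8% (41.6% to 41.9%). KCL-HO-1i 3 stood far above every other library and KCL-HO-1i 2 lay within the vehicle range, so the groups overlapped. The means were 2.15% ± 1.41 (SD, n = 3) in the vehicle group and 18.0% ± 20.9 (SD, n = 3) in the KCL-HO-1i group, a difference of 15.8 percentage points that came to 3.91 without KCL-HO-1i 3. The intervals here and below cover only the counting error of independent reads and leave out the spread between mice and libraries. Reads copied by PCR are not independent molecules, so the intervals can be too narrow even for counting error.

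The 86 nuclear genes together took 0.529% (0.499% to 0.561%), 0.111% (0.0981% to 0.126%) and 0.130% (0.118% to 0.142%) of counts in vehicle 1, 2 and 3. In KCL-HO-1i 1, 2 and 3 they took 1.26% (1.21% to 1.31%), 1.50% (1.46% to 1.55%) and 0.938% (0.913% to 0.964%). All 3 KCL-HO-1i libraries lay above all 3 vehicle libraries, and vehicle 1 stood above the other vehicle libraries by more than its interval. The means were 0.257% ± 0.236 (SD, n = 3) in the vehicle group and 1.23% ± 0.283 (SD, n = 3) in the KCL-HO-1i group. The mitochondrial and nuclear shares did not follow each other between libraries: the ratio of mitochondrially encoded to nuclear subunit counts was 7.12, 10.5 and 11.7 in the vehicle libraries, compared with 7.71, 1.63 and 44.5 in the KCL-HO-1i libraries. The lowest and the highest of these 6 ratios were both in KCL-HO-1i libraries.

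**Figure D1:**
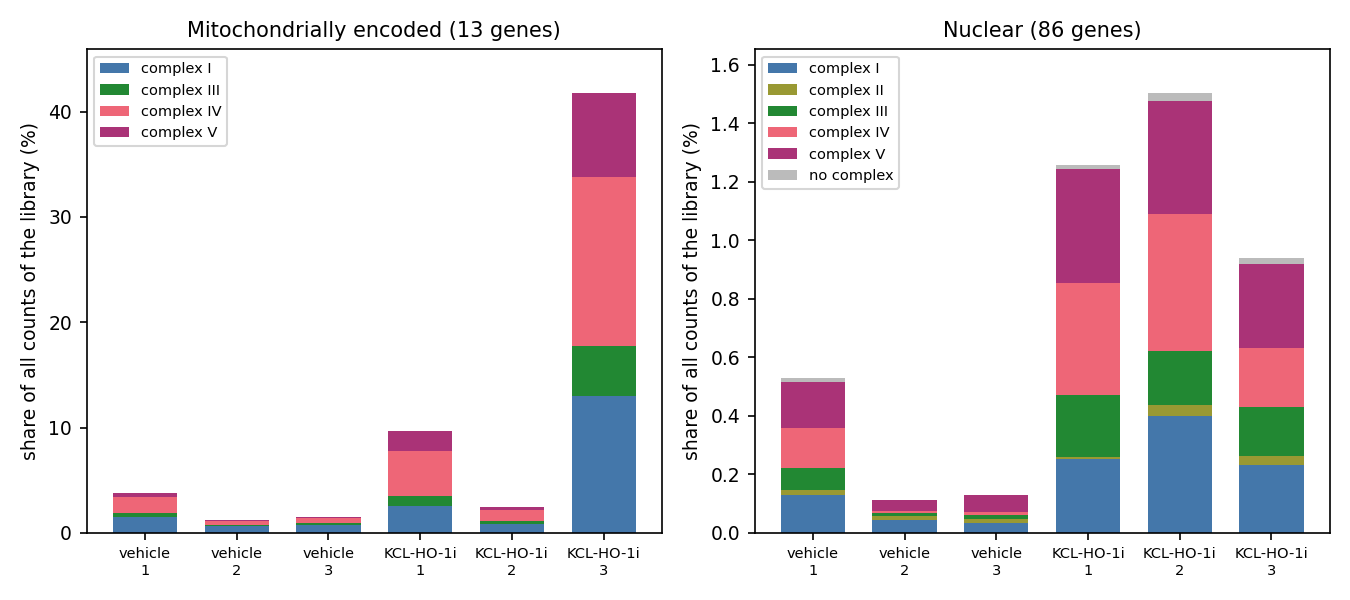
Share of all counts in each of the 6 libraries (percent, axis from 0) taken by the 13 mitochondrially encoded genes (left) and the 86 nuclear genes (right), stacked by complex. The mitochondrially encoded share was 41.8% in KCL-HO-1i 3 and 1.17% to 9.68% in the other libraries, while the nuclear share was 0.938% to 1.50% with KCL-HO-1i and 0.111% to 0.529% with vehicle, an order that was the opposite per 1000 counts of all 15 general macrophage genes and overlapped between the groups without Lyz2, Cd14, Ctss or Tyrobp.

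The direction of the nuclear share depended on what it was taken against. Per 1000 counts of the cytosolic ribosomal protein genes, nuclear subunit counts were 487, 494 and 539.6 in the vehicle libraries, compared with 557, 569.8 and 567 in the KCL-HO-1i libraries. Nuclear subunit and ribosomal protein counts therefore kept nearly the same ratio in all 6 libraries while the share of each differed severalfold. The small differences did not overlap, with every KCL-HO-1i library above every vehicle library on this scale. Per 1000 counts of the general macrophage genes, nuclear subunit counts were 4026, 3196 and 3980.1 in the vehicle libraries, compared with 2780.2, 2729.8 and 2731 in the KCL-HO-1i libraries, so on this scale every KCL-HO-1i library lay below every vehicle library. This order held when any of 11 macrophage genes was left out, but the groups overlapped without Lyz2, Cd14, Ctss or Tyrobp: without Lyz2 the values were 6981, 3632.4 and 5681 with vehicle and 4287, 5079 and 4748 after KCL-HO-1i. The macrophage counts behind these ratios were 272, 75.0 and 110.2 in the vehicle libraries against 939, 1760.0 and 1839 in the KCL-HO-1i libraries.

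Single genes were compared between the 3 KCL-HO-1i and the 3 vehicle libraries in 1 fit across all genes that passed a filter on low counts, with scaling by TMM, which assumes that most genes do not differ between libraries. After this scaling the median log2 CPM of the genes tested was 6.43 to 6.53 in the vehicle libraries and 5.64 to 6.33 with KCL-HO-1i. The filter kept 7263 genes, 66 subunit genes among them (12 mitochondrially encoded, 54 nuclear). By the quasi-likelihood test of edgeR, with p adjusted by the Benjamini-Hochberg method, at an adjusted p under 0.05 and an absolute log2 fold change above 0.6, 0 of the 66 subunit genes and 0 of the 7263 genes (0%) passed. At an unadjusted p under 0.05, 30 subunit genes were higher with KCL-HO-1i and 0 were lower, beside 364 (5.01%) and 222 (3.06%) of all genes tested. In TMM-scaled CPM all KCL-HO-1i libraries lay above all vehicle libraries in 31 of the 66 subunit genes tested and below them in 0, beside 572 (7.88%) and 1171 (16.1%) of all genes tested. Per 1000 macrophage counts, a scale used for single genes after the values were seen, these numbers were 4 above and 9 below, beside 45 (0.62%) and 5308 (73.1%), and per 1000 ribosomal protein counts they were 10 and 5, beside 112 (1.54%) and 4466 (61.5%). DESeq2 without that filter, at the same thresholds, called 11 subunit genes, all higher with KCL-HO-1i, beside 102 higher (0.882%) and 63 lower (0.545%) of the 11562 genes to which it gave an adjusted p. DESeq2 on the filtered genes called 15 subunit genes, again all higher, beside 164 higher (2.26%) and 72 lower (0.992%) of all genes. Limma voom with sample quality weights called 27, all higher, beside 293 higher (4.03%) and 6 lower (0.0826%). Without vehicle 1, edgeR called 14 subunit genes, all higher, beside 72 higher (0.731%) and 2 lower (0.0203%) of the 9853 genes tested then. With no filter it called 5 of 94 subunit genes, all higher, beside 70 higher (0.359%) and 12 lower (0.0615%) of 19518 genes, and with at least 10 counts asked of every library 8 of 12, all higher, beside 61 higher (6.43%) and 6 lower (0.633%) of 948. Under macrophage scaling it called 3 subunit genes, all lower, beside 10 higher (0.138%) and 4981 lower (68.6%) of all genes, and under ribosomal scaling 1, lower, beside 11 higher (0.151%) and 2688 lower (37.0%). With all 6 libraries, TMM scaling and the filter that kept 7263 genes, the smallest edgeR adjusted p of any subunit gene was 0.218.

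Log2 fold changes were positive in 64 of the 66 subunit genes tested, but in 63 when they came from library totals alone, in 35 when libraries were scaled to their macrophage counts and in 45 when they were scaled to their ribosomal protein counts. The median over all 7263 genes was -0.52, and it moved to -4.05 and -3.50 under these scalings, so changes are also given relative to it. Over the genes tested in each case it was -0.26, -0.30 and -0.22 without vehicle 1, 2 and 3, and -0.21, -0.79 and -0.34 without KCL-HO-1i 1, 2 and 3. The median of the 12 mitochondrially encoded genes was 3.58, which was 4.10 above that of all genes under TMM, 4.32 above it under macrophage scaling and 4.34 above it under ribosomal scaling. The median of the 54 nuclear genes was 2.57, which was 3.09, 4.11 and 4.19 above that of all genes in the same order. Without KCL-HO-1i 3 the mitochondrially encoded median was 1.21, and without vehicle 1 the nuclear median was 5.23. In this fit only genes that passed the filter have such a value, and a gene could pass by its counts in 1 group alone. These counts and medians therefore describe the genes tested and not all 99. With no filter, log2 fold changes were positive in all 12 mitochondrially encoded and in 72 of 82 nuclear genes fitted, with a nuclear median of 2.77.

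Among the mitochondrially encoded genes, levels per kilobase can be compared within a library. mt-Atp6 and mt-Atp8 encode 2 of the membrane subunits of complex V, and they are read from 1 message whose coding sequences overlap. Levels are given in CPM, counts scaled to a common library total, per kb of gene. mt-Atp6 stood at 4709, 919 and 1563 CPM per kb in the vehicle libraries, compared with 28123, 4625 and 115606 in the KCL-HO-1i libraries. KCL-HO-1i 3 was the highest, and KCL-HO-1i 2 lay just below vehicle 1, although after TMM scaling the lowest KCL-HO-1i value, 4023 CPM, was above the highest vehicle value, 3706. The log2 fold change was 4.95 (SE 1.72, edgeR adjusted p = 0.418), and it was 2.61 without KCL-HO-1i 3, 1.88 under macrophage scaling and 2.49 under ribosomal scaling. DESeq2 called this gene with an adjusted p of 0.00515.

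Genes of complexes I, III and IV are also on the mitochondrial chromosome. mt-Nd1, a membrane subunit of complex I next to the ubiquinone site, stood at 3968, 1158 and 1687 CPM per kb in the vehicle libraries, compared with 11972, 3118 and 73175 in the KCL-HO-1i libraries. mt-Cytb, the heme-carrying cytochrome b of complex III, stood at 3176, 1496 and 1778 with vehicle and at 8859, 2370.3 and 41762 after KCL-HO-1i. mt-Co2, which takes electrons from cytochrome c in complex IV, stood at 7815, 1288 and 2356 with vehicle and at 27402, 7581 and 121709 after KCL-HO-1i. In each of mt-Nd1, mt-Cytb and mt-Co2, KCL-HO-1i 3 and KCL-HO-1i 1 were above all vehicle libraries and KCL-HO-1i 2 lay between vehicle 1 and the other vehicle libraries, although after TMM scaling KCL-HO-1i 2 was above all vehicle libraries in mt-Co2, with 6624 CPM against at most 6176. Their log2 fold changes were 4.32, 3.63 and 4.35 in this order, and 1.63, 1.29 and 2.10 without KCL-HO-1i 3, 1.09, 0.26 and 1.34 under macrophage scaling and 1.68, 0.83 and 1.96 under ribosomal scaling. Of the other mitochondrially encoded genes, mt-Co3 had 4.14, mt-Nd3 3.94, mt-Atp8 3.53, mt-Nd4 3.11, mt-Nd2 3.00 and mt-Co1 2.42, and under macrophage scaling mt-Nd4, mt-Nd2 and mt-Co1 turned negative, as did mt-Co1 under ribosomal scaling, while mt-Co3, mt-Nd3 and mt-Atp8 were 1.80, 1.04 and 0.28 under macrophage scaling. Without KCL-HO-1i 3 these 6 values were 1.56, 1.97, 0.98, 0.65, 0.61 and 1.14, and without vehicle 1 that of mt-Co3 was 7.73.

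mt-Nd5 and mt-Nd6, both of complex I, differed from the rest. mt-Nd5, a proton-pumping subunit, stood at 2318, 1208 and 1397 CPM per kb in the vehicle libraries, compared with 1683, 977 and 2863 in the KCL-HO-1i libraries. mt-Nd6, the membrane subunit that is alone among these genes in being transcribed from the minus strand, stood at 1426, 777 and 706 with vehicle and at 844, 687 and 1929.6 after KCL-HO-1i. For both genes the groups overlapped, with KCL-HO-1i 2 the lowest of all 6 libraries and KCL-HO-1i 3 the highest on this scale. The log2 fold change of mt-Nd5 was 0.57 (SE 0.95, edgeR adjusted p = 0.936) and that of mt-Nd6 was 0.70 (SE 0.85, edgeR adjusted p = 0.931), and both turned negative under macrophage scaling, under ribosomal scaling and without KCL-HO-1i 3 (-0.27 and -0.25), and that of mt-Nd5 also by library totals. Without vehicle 1 they were 1.21 and 1.40, without KCL-HO-1i 1 they were 1.16 and 1.36, and without KCL-HO-1i 2 that of mt-Nd5 was 0.92. Whether the differences of mt-Nd5 and mt-Nd6 from the other genes exceed the error between mice was not tested.

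Over 7 of the 13 mitochondrially encoded genes, the profile along the chromosome was more uneven in the KCL-HO-1i libraries. Among the 7 genes over 500 bases with no nuclear copy of at least 99% identity over nearly the whole gene, chosen after the values were seen (mt-Nd1, mt-Nd2, mt-Co1, mt-Nd4, mt-Nd5, mt-Nd6 and mt-Cytb), the ratio of the highest to the lowest level per kb was 2.78, 1.97 and 2.52 in the vehicle libraries, compared with 14.2, 4.54 and 37.9 in the KCL-HO-1i libraries. Over these 7 genes the ratios did not overlap between the groups, but with mt-Atp8, which the length limit left out, they did. mt-Atp8 stood at 101 CPM per kb in vehicle 3, where mt-Cytb had 1778, and at 199 in KCL-HO-1i 2, where mt-Nd1 had 3118. The coefficient of variation over the 7 genes was 30.3%, 26.9% and 26.5% with vehicle and 74.7%, 52.2% and 100.3% after KCL-HO-1i. mt-Nd6 was the lowest of the 7 genes in all libraries but vehicle 2, where mt-Nd2 was the lowest. The ratio of mt-Nd1 to mt-Nd6, the ends of this range in all KCL-HO-1i libraries, was 2.78, 1.49 and 2.39 with vehicle and 14.2, 4.54 and 37.9 after KCL-HO-1i. A ratio within a library does not depend on the scaling between libraries.

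**Figure D2:**
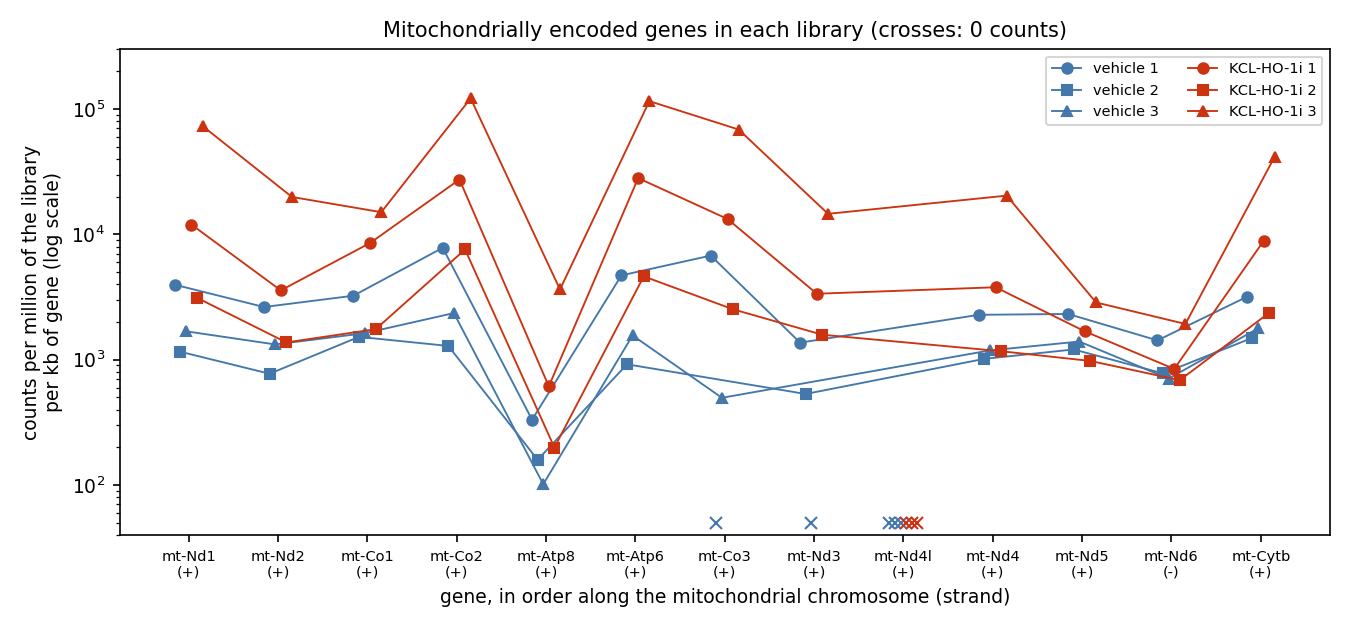
CPM per kb (log axis) of the 13 mitochondrially encoded genes in chromosomal order, 1 line per library, with 0 counts drawn as crosses. From mt-Nd1 to mt-Nd6 the level differed by a ratio of 1.49 to 2.78 in the vehicle libraries and of 4.54 to 37.9 in the KCL-HO-1i libraries. Of 7 genes chosen after the values were seen, this pair was the highest and lowest in all KCL-HO-1i libraries. Among the vehicle libraries it was so only in vehicle 1, so the choice of pair favors wider ratios with KCL-HO-1i.

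Some mitochondrially encoded genes cannot be counted safely. mt-Nd4l, a small membrane subunit of complex I, had 0 counts in every library, mt-Co3, a core subunit of complex IV, had 0 in vehicle 2, and mt-Nd3, a small membrane subunit of complex I, had 0 in vehicle 3. These genes, mt-Atp6 and mt-Co2 have a copy of at least 99% identity over nearly their whole length on chromosome 1, between bases 24612407 and 24615565 of mm10, which could take their reads; none of these copies is in the table. The 6 genes with no copy of at least 99% identity (mt-Nd1, mt-Nd2, mt-Nd5, mt-Nd6, mt-Cytb and mt-Atp8) together took 1.52%, 0.626% and 0.796% of counts with vehicle and 2.89%, 0.930% and 14.5% after KCL-HO-1i, with the same libraries high and low as for all 13. mt-Atp8 stood at 332, 159 and 101 CPM per kb with vehicle and at 613, 199 and 3636 after KCL-HO-1i, below mt-Atp6 in every library although the genes share a message. The 2 longest overlaps between protein-coding genes on this chromosome are printed here because reads inside them can be given to either gene. mt-Atp8 and mt-Atp6 share 43 bases on the plus strand at chrM:7927-7969, and mt-Nd5 and mt-Nd6 overlap by 14 bases on opposite strands at chrM:13552-13565, each written in the direction of the gene named, with capitals marking the shared bases.
mt-Atp8 and mt-Atp6: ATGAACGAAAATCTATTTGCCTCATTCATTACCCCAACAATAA
mt-Nd5: TTAATCTCGAGTAA
mt-Nd6: TTACTCGAGATTAA

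Among the nuclear genes of complex I, 20 of 35 were tested, and their median log2 fold change was 2.31, or -0.52 under macrophage scaling and 3.85 without vehicle 1. The genes with the highest mean level in this complex were Ndufa2, Ndufa1, Ndufb8, Ndufb2 and Ndufs6, all supernumerary subunits, which surround the catalytic core. Ndufa2 stood at 112, 10.3 and 10.2 TMM-scaled CPM in the vehicle libraries, compared with 134, 947 and 847 in the KCL-HO-1i libraries. All KCL-HO-1i values lay above all vehicle values, but vehicle 1 and KCL-HO-1i 1 were close to each other, and the log2 fold change was 3.88 (SE 1.19, edgeR adjusted p = 0.321), or 6.19 without vehicle 1 and 1.16 under macrophage scaling. Ndufb2 stood at 168, 82.7 and 68.3 with vehicle and at 171, 196 and 28.7 after KCL-HO-1i. Here KCL-HO-1i 3 was the lowest library of all, and the log2 fold change of 0.31 (SE 0.96, edgeR adjusted p = 0.962) turned negative without KCL-HO-1i 2 (-0.12) and under macrophage and ribosomal scaling, and was 1.03 without vehicle 1 and 0.94 without KCL-HO-1i 3. Ndufa1 had 20, 0 and 4 counts with vehicle and 88, 81 and 134 after KCL-HO-1i, Ndufs6 had 7, 0 and 1 against at least 16, and Ndufb8 had 13, 13 and 11 against 71, 111.2 and 36.0. In CPM the KCL-HO-1i libraries lay above the vehicle libraries in all 3 of these genes.

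Few counts fell on the catalytic core of complex I. Of the 7 nuclear core subunits, which include those that carry the flavin and the iron-sulfur clusters, only Ndufv2 passed the filter, whereas 19 of the 28 other nuclear symbols of the complex did. Ndufv2 had 7, 12 and 5 counts with vehicle and 8, 33 and 39 after KCL-HO-1i. Ndufs1, the largest iron-sulfur subunit, had 0 counts in every library. Ndufs7 had 17 counts in KCL-HO-1i 3 and 0 elsewhere, and Ndufs8 had 2, 0 and 0 counts with vehicle and 18, 34 and 2 after KCL-HO-1i. These genes were chosen after their values were seen.

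Complex II, succinate dehydrogenase, is encoded by nuclear genes alone and also belongs to the citric acid cycle. Its 4 genes took 0.0169%, 0.0158% and 0.0133% of counts in the vehicle libraries, compared with 0.00722%, 0.0390% and 0.0323% in the KCL-HO-1i libraries. KCL-HO-1i 1 was the lowest library and the groups overlapped, as in no other nuclear complex. Sdhd, a membrane anchor, stood at 78.2, 114 and 75.1 TMM-scaled CPM with vehicle and at 27.6, 236 and 248 after KCL-HO-1i. Its log2 fold change was 0.94 (SE 0.96, edgeR adjusted p = 0.917), it was 1.74 without KCL-HO-1i 1 and 1.41 without vehicle 2, and it was negative under macrophage and ribosomal scaling. Sdhc, the other membrane anchor, had 1, 12 and 21 counts with vehicle and 0, 17 and 12 after KCL-HO-1i. Its log2 fold change of -0.33 (SE 1.54, edgeR adjusted p = 0.973) became positive without vehicle 2 (0.20), without vehicle 3 (0.40) and without KCL-HO-1i 1 (0.54), and was -1.07 without KCL-HO-1i 2, -0.55 without vehicle 1 and -0.18 without KCL-HO-1i 3. Under macrophage scaling it was -4.36, beside a median of -4.05 over all genes, and edgeR called it lower there, as it did 68.6% of all genes. Under ribosomal scaling it was -3.83. Sdha, the flavoprotein, had 20, 0 and 2 counts with vehicle and 9, 23.8 and 77 after KCL-HO-1i, and Sdhb, the iron-sulfur subunit, had 0 counts in all vehicle libraries and 0, 25.0 and 15 with KCL-HO-1i.

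In complex III, 6 of 9 nuclear genes were tested, with a median log2 fold change of 3.18, which was 1.01 under macrophage scaling and 7.36 without vehicle 1. Uqcrh, the hinge subunit that helps cytochrome c bind, had the smallest p of the complex and lies on chromosome 4 between bases 116066965 and 116075071 of mm10. It stood at 16.8, 0 and 3.41 TMM-scaled CPM with vehicle, from 4 counts in all, and at 235, 232 and 391 with KCL-HO-1i. Every KCL-HO-1i value lay above every vehicle value, and the log2 fold change was 5.38 (SE 1.17, edgeR adjusted p = 0.229, DESeq2 adjusted p = 0.00463), or 2.65 under macrophage scaling. Uqcr11, a small membrane subunit, stood at 229, 0 and 3.41 with vehicle and at 645, 639 and 912 after KCL-HO-1i. Vehicle 1 was far above the other vehicle libraries but below all KCL-HO-1i libraries, and the log2 fold change of 3.25 (SE 1.43, edgeR adjusted p = 0.596) was 8.45 without vehicle 1 and 1.15 under macrophage scaling. Uqcrb, a small matrix-side subunit, had 39.0, 0 and 2 counts with vehicle and 156, 142 and 243 after KCL-HO-1i, and Uqcr10, another small subunit, had 17, 0 and 0 against 34, 81 and 89. Uqcrq, a small subunit next to cytochrome b, had 49, 3 and 24 counts against 11, 111 and 146, with KCL-HO-1i 1 within the vehicle range.

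In complex IV, 12 of 20 nuclear genes were tested, with a median log2 fold change of 3.02, which was 0.65 under macrophage scaling and 6.93 without vehicle 1. This complex differed most between the vehicle libraries in its share of counts, with 0.135% in vehicle 1, 0.00417% in vehicle 2 and 0.0116% in vehicle 3 against 0.384%, 0.469% and 0.202% with KCL-HO-1i. In vehicle 2 all 20 genes together had 9 counts. Cox8a, a small membrane subunit encoded on chromosome 19 between bases 7215153 and 7217616 of mm10, stood at 27.9, 0 and 3.41 TMM-scaled CPM with vehicle and at 161, 599 and 323 after KCL-HO-1i. The groups did not overlap, and the log2 fold change was 5.12 (SE 1.24, edgeR adjusted p = 0.249, DESeq2 adjusted p = 0.00654), or 2.42 under macrophage scaling. Cox7c, a small membrane subunit, stood at 218, 10.3 and 37.5 with vehicle and at 714, 1187 and 438 after KCL-HO-1i. Vehicle 1 again stood above the other vehicle libraries, and the log2 fold change of 3.14 (SE 1.08, edgeR adjusted p = 0.403) was 5.21 without it and 0.54 under macrophage scaling. Ndufa4, which was first assigned to complex I and is a subunit of complex IV, had a log2 fold change of 4.39 (SE 1.30, edgeR adjusted p = 0.310), or 6.98 without vehicle 1 and 1.75 under macrophage scaling, from 67.1, 10.3 and 0 CPM with vehicle and 194, 815 and 581 after KCL-HO-1i. Cox6c, a small membrane subunit, had 84.5, 0 and 5 counts with vehicle and 190.4, 246 and 285 after KCL-HO-1i, and Cox5a, a matrix-side subunit, had 31.0, 0 and 0 counts against 76, 189 and 95.2.

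In complex V, 12 of 17 nuclear genes were tested, with a median log2 fold change of 2.71, which was 0.40 under macrophage scaling and 5.49 without vehicle 1. Atp5mpl, a small membrane subunit encoded on chromosome 12 between bases 111961375 and 111966977 of mm10, had the smallest p of all subunit genes. It stood at 50.3, 25.8 and 27.3 TMM-scaled CPM with vehicle and at 447, 499 and 581 after KCL-HO-1i. On this scale the groups did not overlap, with a log2 fold change of 3.87 (SE 0.81, edgeR adjusted p = 0.218, DESeq2 adjusted p = 0.00543) that ran from 3.88 to 4.50 when each library was left out in turn and was 0.62 under macrophage scaling and 1.18 under ribosomal scaling. Per 1000 macrophage counts Atp5mpl had 33.1, 66.7 and 72.6 counts with vehicle and 103.3, 71.0 and 88.0 after KCL-HO-1i, so on that scale the groups overlapped. Atp5l, the g subunit of the membrane part, stood at 212, 15.5 and 34.1 with vehicle and at 493, 1426 and 944 after KCL-HO-1i. The groups did not overlap, and the log2 fold change of 3.46 (SE 1.07, edgeR adjusted p = 0.322) was 5.48 without vehicle 1 and 0.74 under macrophage scaling. Atp5md, another small membrane subunit, had 42, 25 and 28 counts with vehicle and 94, 147 and 303 after KCL-HO-1i, and Atp5a1, a catalytic-head subunit, had 30, 0 and 4.11 against 87, 29.8 and 151.

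The 3 genes of the c subunit, which forms the rotating ring of complex V, did not share a pattern. Atp5g1 stood at 313, 93.0 and 352 TMM-scaled CPM with vehicle and at 50.7, 296 and 79.0 after KCL-HO-1i. Its KCL-HO-1i libraries spanned values below and within the vehicle range, and its log2 fold change was -0.83 (SE 0.92, edgeR adjusted p = 0.928), and -4.38 under macrophage scaling, where edgeR called it lower with 68.6% of all genes, whose median was -4.05. Under ribosomal scaling it was -3.78, and edgeR called it lower with 37.0% of all genes. It was -1.96 without KCL-HO-1i 2, -0.16 without KCL-HO-1i 1, -0.29 without KCL-HO-1i 3, -0.38 without vehicle 1 and -0.32 without vehicle 3. Atp5g3 had 46, 0 and 0 counts with vehicle and 77, 61.8 and 249 after KCL-HO-1i. Atp5g2, named after its values were seen to complete the set, has a near-identical copy elsewhere in the genome, and its groups overlapped. Atp5o, the stalk subunit that joins head and membrane part, was not tested, and it was named after its values were seen: it had 10, 10 and 6 counts with vehicle and 1.42, 0 and 0 after KCL-HO-1i, so in this gene every KCL-HO-1i library lay below every vehicle library.

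**Figure D3:**
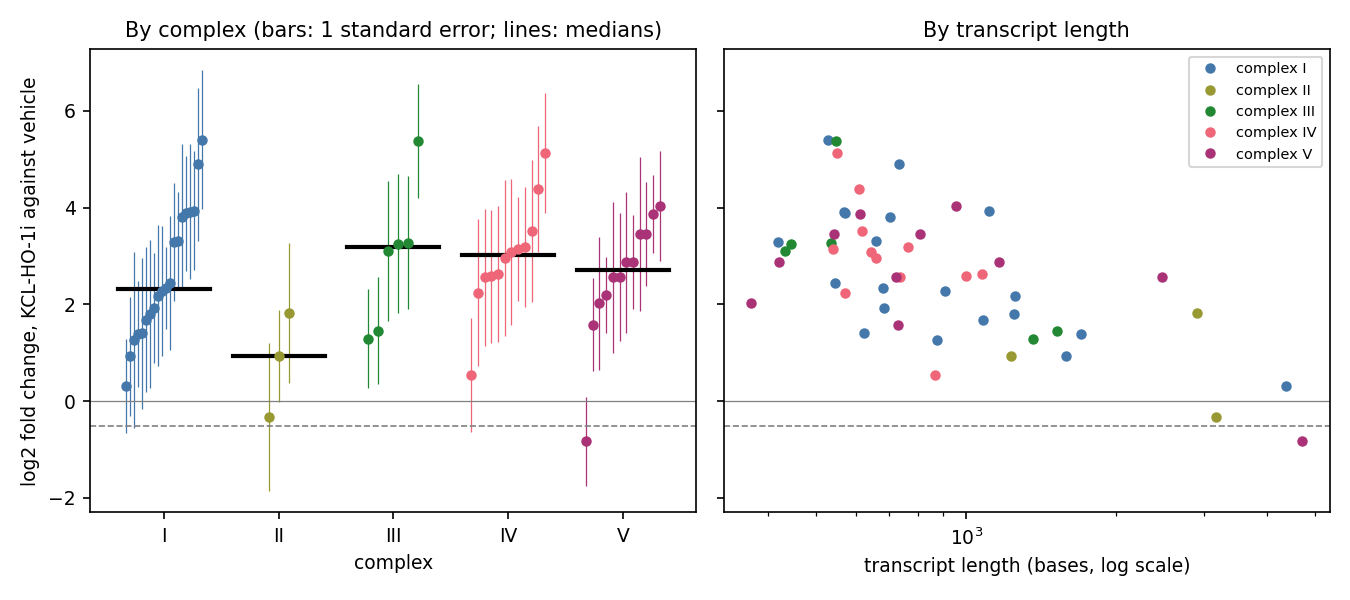
Log2 fold change (KCL-HO-1i against vehicle, edgeR with TMM) of the nuclear genes tested by complex, with bars of 1 standard error and lines at the medians (left), and against transcript length in bases on a log axis (right); the dashed line is the median of all 7263 genes. The values were positive in 52 of 54 genes, in 28 under macrophage scaling and in 36 under ribosomal scaling, and were lower for longer transcripts.

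Transcript length ordered the nuclear genes, a comparison chosen after the values were seen. Length was that of the longest protein-coding transcript that the annotation marks as principal, or of the longest one where none is marked. It need not be the transcript that was counted. The 27 tested nuclear genes with transcripts up to the median of 731 bases had a median log2 fold change of 3.25, the 26 with longer ones had 2.00, and the 17 over 1000 bases had 1.69. Only genes that passed the filter enter these medians, and a gene could pass by its counts in 1 group alone, which limits how they can be read. The Spearman correlation of length and log2 fold change was -0.59 across 53 genes, which share libraries and are not independent replicates. The pattern was not particular to subunit genes: among tested genes that are neither subunit nor ribosomal protein genes, the 69 with transcripts up to 731 bases had a median of 2.76 and the 7019 with longer ones had -0.55. The 2 tested nuclear genes with negative values, Atp5g1 and Sdhc, had longest annotated transcripts of 4715 and 3171 bases, and Ndufb2 had 4371. Whether these long forms were the ones counted is not known. Atp5g1 alone held 23.5% of the nuclear subunit counts of vehicle 3. Over all nuclear subunit genes with a known length, tested or not, the share of counts on the 32 genes with transcripts over 1000 bases was 29.3%, 67.2% and 66.0% in the vehicle libraries, compared with 14.6%, 19.6% and 18.6% in the KCL-HO-1i libraries. These shares did not overlap between the groups, and vehicle 1 was the nearest to the KCL-HO-1i libraries. The part of transcript length in the differences above was not tested.

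Of the 99 genes, 33 were not tested. They include mt-Nd4l and 32 nuclear genes, whose highest count in any library was 61, in Ndufa6. At 0 in every library were 5 genes, mt-Nd4l, Ndufs1, Cox4i2, Cox6b2 and Cox7b2. By counting error alone a count of 0 allows up to 3 counts, and variation between libraries can allow more. This bound does not apply to mt-Nd4l, whose reads its copy on chromosome 1 could take. Counts in vehicle libraries alone were found in 4 genes, and counts in KCL-HO-1i libraries alone in 6. The other 18 untested genes had counts in both groups. Ndufa7 and Ndufb10, supernumerary subunits of complex I, passed the filter with few vehicle counts and are given by counts: Ndufa7 had 0, 0 and 1.99 with vehicle and 31, 42 and 27.1 after KCL-HO-1i, and Ndufb10 had 2, 0 and 0 against 25.1, 15.05 and 47.

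Several subunits of complex IV exist as pairs of a widespread isoform and an isoform of muscle, testis, lung or hypoxic tissue. The 8 restricted isoforms had 4, 1 and 7 counts in all in the vehicle libraries, compared with 0, 5 and 16 in the KCL-HO-1i libraries. Cox6a2, the form of heart and skeletal muscle, had 14 of the 16 counts in KCL-HO-1i 3. The 7 widespread partners (Cox4i1, Cox6a1, Cox6b1, Cox7a2, Cox7b, Cox8a, Ndufa4) had 94.3, 2 and 8.47 counts with vehicle and 349, 702 and 520.2 after KCL-HO-1i. In 4 of these 7 partners all KCL-HO-1i libraries lay above all vehicle libraries in TMM-scaled CPM and in 0 below them, beside 7.88% and 16.1% of all genes tested, and all 7 had positive log2 fold changes, but 6 did under macrophage scaling. In every library but vehicle 2 and vehicle 3, where both sets were near 0, the widespread forms made up nearly all counts of the pairs.

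Other genes of the same pathway were not all higher with KCL-HO-1i. Under edgeR 0 genes of the 6 lists of pathway genes described next passed the adjusted threshold, and at an unadjusted p under 0.05 the lists had 1, 0, 0, 1, 2 and 2 genes higher with KCL-HO-1i, of 10, 7, 4, 5, 6 and 7 tested, and 0 lower, beside 5.01% higher and 3.06% lower of all genes tested. DESeq2 without the filter called 0 of them, and DESeq2 on filtered genes and limma voom each called 1, in the list of defence and uncoupling. Of 46 assembly factors, which build the complexes without staying in them, 10 were tested, with a median log2 fold change of 0.62 (-2.86 under macrophage scaling), which was 1.14 above that of all genes under TMM and 1.18 above it under both macrophage and ribosomal scaling. It was 1.02 without vehicle 1, 0.94 without vehicle 2, and 0.39, 0.25 and 0.96 without KCL-HO-1i 1, 2 and 3. The most abundant were Sdhaf2, with 26, 23 and 61 counts against 71, 65 and 54, and Cox17, a copper carrier, with 17.8, 21 and 28 against 11, 67.9 and 45. Of 19 genes for mitochondrial DNA transcription, replication and RNA turnover, 7 were tested, with a median of -0.09 (-3.53 under macrophage scaling), or 0.43, 0.52 and 0.44 above that of all genes in the same order. It was -0.27, -0.26 and 0.25 without vehicle 1, 2 and 3, and 0.04, -0.76 and 0.45 without KCL-HO-1i 1, 2 and 3. The most abundant was Ssbp1, which binds single-stranded DNA. Of 7 nuclear regulators of respiration genes, 4 were tested, with 0 positive values and a median of -1.28, which was 0.76, 0.65 and 0.62 below that of all genes and became -2.41 without KCL-HO-1i 2 and -2.75 without KCL-HO-1i 3. Their summed share was 0.0542%, 0.0536% and 0.0464% with vehicle and 0.0144%, 0.0194% and 0.0140% after KCL-HO-1i, the reverse of the order of the nuclear subunits. The most abundant of them were the transcription factors Yy1, with 33, 44 and 52 counts against 30, 16 and 27, and Nrf1, with 46, 6 and 21 against 0, 6 and 26.

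Enzymes and carriers around the chain were read out in the same way, and differences between lists were not tested. Of 16 genes of the citric acid cycle, 5 were tested, with a median log2 fold change of 2.31 (-1.31 under macrophage scaling), which was 2.83, 2.73 and 2.81 above that of all genes under TMM, macrophage and ribosomal scaling and 0.55 without KCL-HO-1i 3, and the most abundant were Dlat and Pdha1 of the pyruvate dehydrogenase complex. Of 10 mitochondrial carriers and pores, 6 were tested, with medians of 1.31 under TMM and -2.03 under macrophage scaling, and 1.84, 2.02 and 2.08 above all genes under the 3 scalings. The TMM median was 2.10 without vehicle 1 and 2.09 without KCL-HO-1i 1. The most abundant were Tomm20, an import receptor, and Slc25a3, the phosphate carrier, which had 8.33, 16 and 6 counts with vehicle and 47, 48 and 61 after KCL-HO-1i. Of 10 genes of defence against oxidants and of uncoupling, 7 were tested, with a median of 0.54 (-2.37 under macrophage scaling), or 1.06, 1.67 and 1.75 above all genes. It was 2.09, 1.06 and 1.46 without vehicle 1, 2 and 3, 1.69 without KCL-HO-1i 1 and 0.86 without KCL-HO-1i 2, and Gpx4, a glutathione peroxidase, Txn2, a thioredoxin, and Sod2, a superoxide dismutase, led in level. Cycs, the cytochrome c that carries electrons from complex III to complex IV and lies outside the symbol rule, had 39, 5 and 24 counts with vehicle and 157, 109 and 61 after KCL-HO-1i. Ndufab1, an acyl carrier protein in complex I also outside the rule, had 24.6, 37 and 46.3 counts against 17.7, 19.3 and 61. The 72 tested cytosolic ribosomal protein genes had a median of 2.34 (-0.32 under macrophage scaling, 3.97 without vehicle 1), which was 2.86, 3.72 and 3.81 above all genes, and in 47 of them all KCL-HO-1i libraries lay above all vehicle libraries in TMM-scaled CPM and in 0 below, beside 7.88% and 16.1% of all genes tested.

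Genes of other cells also differed between the groups. The 12 mammary tumor epithelium genes took 0.0407%, 0.0218% and 0.0264% of counts with vehicle and 0.139%, 0.0600% and 0.0766% after KCL-HO-1i, a difference that rested on Wfdc18: without it the list had 39.1, 47 and 81.3 counts with vehicle and 53, 87.7 and 23 after KCL-HO-1i. Epcam had 5, 0 and 0 counts against 0, 4 and 9, Cdh1 had 5, 12 and 13 against 0, 3 and 0, and Cldn4 had 5, 9 and 12 against 0, 8 and 1. The 6 erythroid genes took 0.0530% in KCL-HO-1i 2, led by Hba-a1, and at most 0.00579% in every other library. The 9 endothelial genes, led by Vwf and Cdh5, took 0.0241% to 0.0317% with vehicle and 0.00715% to 0.0148% with KCL-HO-1i, and the 9 fibroblast and pericyte genes, led by Pdgfra, took 0.0283% to 0.0339% and 0.00722% to 0.0206%. The receptor genes described above were lower too, with 6.01% to 6.46% and 2.22% to 4.17%. In TMM-scaled CPM all KCL-HO-1i libraries lay below all vehicle libraries in 16.1% of all genes tested and above them in 7.88%. Counts were few: Vwf had 24.5, 0 and 19.2 with vehicle and 0, 10.4 and 21.3 after KCL-HO-1i. Of counts outside the mitochondrially encoded genes the endothelial shares still did not overlap between the groups, whereas the fibroblast and pericyte share was 0.0353% in KCL-HO-1i 3 and 0.0286% to 0.0352% with vehicle. All 8 skeletal muscle genes together, led by Ckm, took 0.00664% to 0.00974% with vehicle and 0.00897% to 0.0189% with KCL-HO-1i, or 0.00690% to 0.00985% and 0.0154% to 0.0193% of counts outside the mitochondrially encoded genes. T and NK cell genes (led by Cd8a), B cell genes (led by Pax5), neutrophil genes (led by S100a8) and adipocyte genes (led by Plin1) overlapped between the groups and took at most 0.0223% in any library. The sort gate, which took live cells positive for CD45, F4/80, CD206 and LYVE1, is meant to leave such cells out, and their part in the levels of the subunit genes was not tested.

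The promoters of the nuclear subunit genes were searched for the motifs of factors known to regulate respiration genes. RefSeq promoters on GRCm38.p6, from 250 bases before to 50 after the gene start, matched 67 of the 86 nuclear genes. On both strands, the NRF1 motif GCATGCGC was in 10 of them (14.9%) and in 3.05% of the 27025 promoters of the same length in the table. The GABPA motif CCGGAAG was in 17 (25.4%), beside 9.93% of all, and the YY1 motif GCCATNTTG was in 10 (14.9%), beside 2.90% of all. No motif contains another, and a match is a description and not a binding site. The 250 bases before the start are printed for Atp5l, the nuclear gene of complex V with the highest mean CPM, which holds a match to 2 of the motifs, and for Uqcrh, the complex III gene with the smallest p. Both lie on the minus strand and are written in the direction of the gene, with motifs in capitals: NRF1 and then GABPA as its reverse complement at chr9:44920743-44920992, and GABPA as its reverse complement at chr4:116075071-116075320.
Atp5l: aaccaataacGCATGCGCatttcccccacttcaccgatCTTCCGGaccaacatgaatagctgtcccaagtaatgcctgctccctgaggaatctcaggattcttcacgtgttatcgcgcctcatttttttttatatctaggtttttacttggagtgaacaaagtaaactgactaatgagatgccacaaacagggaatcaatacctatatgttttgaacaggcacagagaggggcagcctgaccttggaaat
Uqcrh: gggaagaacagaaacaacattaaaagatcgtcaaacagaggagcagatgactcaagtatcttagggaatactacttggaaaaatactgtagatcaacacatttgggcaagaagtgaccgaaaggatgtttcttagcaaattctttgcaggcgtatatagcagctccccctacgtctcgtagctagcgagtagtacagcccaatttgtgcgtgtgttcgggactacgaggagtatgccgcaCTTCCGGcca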

How the data were processed

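RNA of 6 libraries (3 vehicle, 3 KCL-HO-1i) was sequenced from directional libraries. The deposited table holds estimated counts (expected counts) per gene, made by the authors with FastQC 0.11.9, STAR 2.7.9a, Salmon 1.9.0 and tximport on mm10, not scaled to library size. The methods call the table TPM, but its totals differ between libraries. The annotation used and the strand setting of the counting are not given.

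Counts were rounded and fitted with edgeR 4.0.16 (R 4.3.3) by the quasi-likelihood test, with filterByExpr (minimum count 10, minimum total 15), TMM factors and group as the only term. Calls needed a Benjamini-Hochberg adjusted p under 0.05 over all genes tested and an absolute log2 fold change above 0.6. Shares are percents of all counts with Wilson 95% intervals. Positions and lengths came from GENCODE M21, which matched 98 of 99 genes, copies of mitochondrial genes from BLAST 2.17.0, and tables from Python 3.11.15. Alternatives used DESeq2 1.42.0, limma 3.58.1, other scalings and filters, a replicate block, and each library left out. Lists of related genes and of cell markers were read out of the same fit. The code was tested on simulated data.

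Genes named with their statistics were the mitochondrially encoded genes, the up to 5 nuclear genes with the highest mean level in each complex, the up to 3 with the smallest p in each direction, and the isoform pairs. The genes and lists were chosen with earlier results of these data known.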

Additional observations from a re-analysis of the deposited data

How the results depend on the processing

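The libraries held 206728 to 535224 counts, and 32 nuclear subunit genes did not pass the filter. The part of depth in this was not tested. Counts varied between libraries of a group far beyond the error of independent reads. Reads copied by PCR are not independent, and with 1 library per mouse the spread between mice cannot be told apart from library preparation. Genes called were 0 by edgeR with TMM, RLE factors, library totals, library sizes without mitochondrial genes and the replicate block, and 165 by DESeq2, 236 by DESeq2 on filtered genes, 299 by limma voom, 4991 under macrophage scaling (10 higher, 0.138%, and 4981 lower, 68.6%), 82 of 19518 without a filter (70 higher, 0.359%), 67 of 948 with at least 10 counts in every library (61 higher, 6.43%), and 0 to 74 when each library was left out (74 of 9853 without vehicle 1). Subunit genes called were 0 in the same 5 settings, and 11, 15, 27, 3, 5 (of 94 tested), 8 (of 12 tested) and 0 to 14 (14 of 69 tested without vehicle 1) in the same order; all were higher but the 3 under macrophage scaling, Atp5g1, Sdhc and mt-Nd5, which were lower. Scaling to ribosomal protein genes, added once the data had been seen, called 2699 genes (2688 lower, 37.0%) and 1 subunit gene, Atp5g1, lower. Thresholds with no fold change minimum or one above 1 left edgeR at 0. The causes of these differences were not tested.

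The mitochondrially encoded median of 3.58 was 2.13 with the replicate block, 2.23 by limma voom, 2.76 by library totals, 0.27 under macrophage scaling, 0.84 under ribosomal scaling and 1.21 (without KCL-HO-1i 3) to 4.42 (without vehicle 1) when libraries were left out. The nuclear median of 2.57 was 4.02 by limma voom, 0.0595 under macrophage scaling, 0.69 under ribosomal scaling, 4.01 with replicate number as a block, although mice of the same number are not paired, and 2.41 to 5.23 (without vehicle 1) when libraries were left out. Both medians were positive under every alternative run. The difference in mitochondrially encoded share of 15.8 points was 3.91 to 23.6 when libraries were left out, 26.1 of counts outside these genes and 5.14 for the genes without a close copy, also added once the data had been seen. The difference in nuclear share of 0.976 points was 1.25 of counts outside mitochondrially encoded genes, 1.29 of counts outside these and receptor genes, and 0.841 to 1.12 when libraries were left out.

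Of 394 values of 24 genes under the alternatives, 325 kept the direction and the side of the threshold, 50 kept the direction and passed the threshold, and 19 changed direction. Under macrophage scaling the latter were mt-Nd2 (-0.28), mt-Nd4 (-0.25), mt-Co1 (-0.85), mt-Nd5 (-2.78), mt-Nd6 (-2.65), Ndufb2 (-2.81) and Sdhd (-2.79), and under ribosomal scaling mt-Co1 (-0.29), mt-Nd5 (-2.22), mt-Nd6 (-2.09), Ndufb2 (-2.27) and Sdhd (-2.26). These scalings also moved the median of all genes, from -0.52 to -4.05 and -3.50, and each of these genes stayed above it. By library totals mt-Nd5 was -0.021. Left-out libraries changed the direction of mt-Nd5 (-0.27 to 1.21), mt-Nd6 (-0.25 to 1.40), Ndufb2 (-0.12 to 1.03) and Sdhc (-1.07 to 0.54; 0.20, 0.40 and 0.54 without vehicle 2, vehicle 3 and KCL-HO-1i 1). The causes were not tested.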
